A study of Mus musculus with 20 samples.

Results

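Glycolysis in the liver runs in part on isoenzymes that differ from those of most other tissues. Here 9 transcripts that encode glycolytic isoenzymes, of the liver or of other tissues, are described across 20 liver libraries. They are Pklr and Pkm (pyruvate kinases), Ldha and Ldhb (lactate dehydrogenase subunits), Pfkl and Pfkm (phosphofructokinases), Hk1 and Hk2 (hexokinases) and Eno1 (an enolase). The 9 were taken by gene symbol out of 45306 genes in the expression table, and all 9 were among the 15616 that passed a filter on low counts. They were chosen by name, with the fold changes of the same comparisons already known, so the levels and p-values of these genes are a description and support nothing beyond themselves.

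Pyruvate kinase makes pyruvate and ATP in the last step of glycolysis. Hepatocytes mainly use the L form encoded by Pklr, which is switched on by dietary carbohydrate, whereas Pkm, through alternative splicing, encodes the M1 form of muscle and the M2 form of dividing and many other non-hepatocyte cells. Lactate dehydrogenase interconverts pyruvate and lactate, and its A subunit predominates in liver and skeletal muscle while its B subunit predominates in heart. Phosphofructokinase commits sugar to glycolysis and has a liver (Pfkl), a muscle (Pfkm) and a platelet (Pfkp) gene. Hexokinases trap glucose in the cell, and Hk1 and Hk2 are high-affinity forms found mostly outside hepatocytes.

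The libraries came from the livers of C57BL/6 mice, aged 5 weeks at the start, in 4 groups of 5. Control mice were wild type and kept at 24 °C. CE mice were wild type and spent 3 h per day at 4 °C for 3 weeks (intermittent cold exposure). Sirt2-/- mice carried a knockout of the NAD-dependent deacetylase Sirt2, made by injecting fertilized eggs with a ribonucleoprotein aimed at some of its coding exons, and were not cold exposed. Sirt2-/-/CE mice had the same knockout and the same exposure. The number of knockout founder lines, and the sex of the mice in a group, are not given in the sources used here. The labels do not say that each library came from a separate mouse, so p-values measure only the spread between libraries.

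The libraries held 35499796 to 53917339 counts each. Sirt2 had 20.1 to 22.9 FPKM (read level scaled to transcript length and library depth, which can be compared between genes) in Control and 9.32 to 15.3 in Sirt2-/-. In CE it had 21.5 to 25.9, against 10.1 to 13.1 in Sirt2-/-/CE, and both pairs of groups were apart. Its gene-level values do not separate the targeted exons from the others, and reads by exon were not examined. The edgeR quasi-likelihood test put its log2 fold change at -0.94 (SE 0.15, adjusted p = 0.0145) in Sirt2-/- against Control and at -1.11 (SE 0.15, adjusted p = 0.0043) in Sirt2-/-/CE against CE. The 6 hepatocyte markers summed to 41222 to 79879 FPKM, and the muscle markers to at most 1.29 FPKM with Ckm, a muscle creatine kinase, listed at 0. Of the 5 adipocyte markers, 4 (Plin1, Lep, Retn and Ucp1) were listed at 0 throughout.

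In all 4 groups the liver form led among the pyruvate kinases, lactate dehydrogenase subunits and phosphofructokinases. Of the FPKM of both pyruvate kinases, Pklr held a mean of 82.7% (SD 12.5, n = 20), with a range of 42.2% to 96.4%. Ldha held 99.6% of the lactate dehydrogenase pair, with a range of 98.8% to 99.9%. The phosphofructokinases were the most mixed family, with 64.0% for Pfkl, 31.8% for Pfkm and 4.19% for Pfkp. Eno1 held 92.8% of the enolases, its near-identical relative Eno1b 6.23% and the muscle form Eno3 0.971%. As levels, Ldha (mean 409 FPKM) and Eno1 (mean 189 FPKM) stood above 99.0% and 97.7% of the genes tested, whereas Hk2 (mean 0.247 FPKM) stood above 13.4%.

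**Figure D1:**
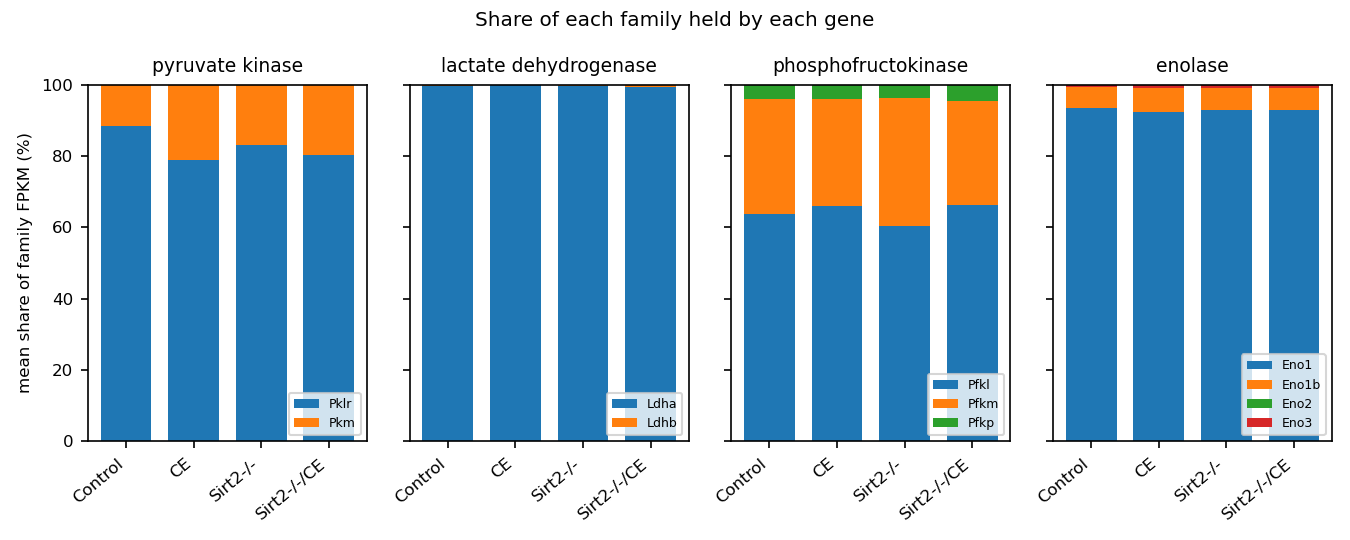
Mean share (in percent, 5 libraries a group) of the summed FPKM of a family held by each of its genes, by group. Pklr, Ldha, Pfkl and Eno1 held the largest share in every group, and the mean share of Pklr in CE, 78.9%, includes CE replicate 6 at 42.2%, while the CE median was 89.3%.

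In the GENCODE vM21 annotation of GRCm38, Pklr (ENSMUSG00000041237) lies on the forward strand of chromosome 3 from 89136142 to 89146784, and Pkm (ENSMUSG00000032294) on the forward strand of chromosome 9 from 59656368 to 59679375. Ldha (ENSMUSG00000063229) runs from 46841475 to 46855627 on chromosome 7, forward strand. Ldhb (ENSMUSG00000030246) runs from 142490249 to 142507957 on chromosome 6, reverse strand. All are protein coding. RefSeq start sites on GRCm38.p6 were found for all 9 genes, as 18 windows of 250 bases upstream. The windows of Pklr and of the lactate dehydrogenase pair are shown, because the largest differences below were those of Pklr and Ldhb. Capitals mark 3 motifs searched on both strands, namely the carbohydrate response element (CACGNG and CNCGTG with 5 bases between them), the hypoxia response core ACGTG and the E-box CACGTG, which holds an ACGTG. The Pklr window belongs to the downstream start, chr3:89136373-89136571 on the forward strand, and is printed up to the first annotated exon there. The Ldha window is chr7:46845554-46845803 on the forward strand. Both lie within the gene as GENCODE bounds it, and the Ldhb window is chr6:142507958-142508207, given on the reverse strand.
Pklr: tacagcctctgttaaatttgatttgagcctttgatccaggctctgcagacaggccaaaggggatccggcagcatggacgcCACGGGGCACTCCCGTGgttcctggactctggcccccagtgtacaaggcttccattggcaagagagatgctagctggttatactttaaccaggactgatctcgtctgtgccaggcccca
Ldha: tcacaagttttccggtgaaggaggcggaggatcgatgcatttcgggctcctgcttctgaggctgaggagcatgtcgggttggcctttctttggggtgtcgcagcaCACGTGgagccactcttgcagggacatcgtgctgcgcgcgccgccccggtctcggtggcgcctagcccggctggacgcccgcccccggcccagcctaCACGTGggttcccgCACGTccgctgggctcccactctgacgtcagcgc
Ldhb: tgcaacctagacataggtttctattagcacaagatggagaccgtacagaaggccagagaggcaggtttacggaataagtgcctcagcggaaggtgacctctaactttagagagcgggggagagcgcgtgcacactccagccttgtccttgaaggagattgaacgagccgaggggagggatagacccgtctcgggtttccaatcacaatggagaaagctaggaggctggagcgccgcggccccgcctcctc

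The Pklr window held the carbohydrate response element, a binding form for the glucose-responsive factor ChREBP (Mlxipl), from base 81. Of all 32851 windows, 13 (0.0396%) held it, and the other 17 windows of the 9 genes did not. The Ldha window shown held 5 matches to ACGTG, counted on both strands, and 2 E-boxes, and the window of a second Ldha start, chr7:46846832-46847081, held none of the 3 motifs. ACGTG stood in 16.6% of all windows and CACGTG in 6.02%. None of the 3 motifs stood in the Ldhb window. These are matches of letters only. Mlxipl itself had 31.3 ± 5.30 FPKM in Control (SD, n = 5), 29.6 ± 5.84 in CE, 28.7 ± 5.97 in Sirt2-/- and 29.3 ± 9.58 in Sirt2-/-/CE.

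Pklr had its highest level in Control. Its 5 Control libraries had 119, 134, 46.1, 69.1 and 56.0 FPKM. The 5 CE libraries had 45.8, 42.2, 19.5, 34.6 and 37.8 FPKM. Every CE library was below every Control library, although the nearest values were 46.1 and 45.8 FPKM and 2 Control libraries stood far above the rest. The Sirt2-/- libraries had 51.9, 39.98, 32.9, 30.4 and 43.0 FPKM. The Sirt2-/-/CE libraries had 21.1, 37.0, 48.3, 41.0 and 92.6 FPKM. All 5 Sirt2-/- libraries were below the Control mean of 84.8 FPKM, and the groups overlapped. In the order of means, Control was followed by Sirt2-/-/CE (48.0 ± 26.9, SD), Sirt2-/- (39.6 ± 8.57) and CE (36.0 ± 10.1), and no neighbours in that order were apart.

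The fitted log2 fold change of Pklr was -1.22 in CE (SE 0.33, adjusted p = 0.193 from the edgeR test over 15616 genes) and -1.25 in Sirt2-/- (SE 0.33, adjusted p = 0.0684), both against Control. Neither passed the threshold of 0.05. DESeq2 on the same counts called both, with adjusted p of 0.0326 and 0.00844, and so did limma voom with sample quality weights, with adjusted p of 0.0117 and 0.00667. Over all 7 alternatives other than leaving out a library, the edgeR fits included, adjusted p ranged from 0.0117 to 0.309 for CE and from 0.00667 to 0.415 for Sirt2-/-. Without each library in turn, the value ranged from -1.37 to -0.99 in CE and from -1.41 to -1.02 in Sirt2-/-. Both comparisons share the Control libraries. In Sirt2-/-/CE the value was 0.40 (SE 0.32, adjusted p = 0.86) against Sirt2-/- and 0.37 (SE 0.32, adjusted p = 0.935) against CE by edgeR, and these became -0.02 and -0.06 without Sirt2-/-/CE replicate 20. The interaction of genotype and CE was 1.62 (SE 0.46, adjusted p = 0.375 by edgeR).

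A score of circadian clock genes, taken in centred log2 CPM as the average of the output genes Ciart, Dbp, Nr1d2, Per3 and Tef less that of the activators Arntl, Clock and Npas2, moved with these groups. It was 1.33 to 3.36 in Control, -4.52 to 2.42 in CE, -6.48 to 2.17 in Sirt2-/- and -4.69 to 0.87 in Sirt2-/-/CE. This score was added as a covariate after the data were seen. With it the log2 fold change of Pklr was -1.17 in CE (adjusted p = 0.256 by edgeR) and -1.18 in Sirt2-/- (adjusted p = 0.415). Over all genes, edgeR calls in Sirt2-/- against Control went from 139 to 0 with it. As the score differed between the groups, its part in the Pklr levels cannot be told apart from that of group. Pklr also shares 711 of its 3236 exon bases with Hcn3, an ion channel gene on the opposite strand, and the handling of strand is not given in the sources used here. Hcn3 held 1.48% to 9.16% of the counts of both genes.

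The Pkm values turned on 1 library. The CE libraries had 62.8, 5.05, 2.23, 6.71 and 4.53 FPKM, where the first is CE replicate 6. Control had 5.10, 4.95, 6.69, 13.4 and 14.8 FPKM. Sirt2-/- had 7.42, 6.33, 6.29, 11.3 and 8.10 FPKM, and Sirt2-/-/CE had 15.1, 7.28, 8.14, 7.20 and 10.99. All groups overlapped. The log2 fold change in CE was 0.82 (SE 0.64, adjusted p = 0.71 by edgeR) and became -0.96 without CE replicate 6, so its direction turned. That of Sirt2-/-/CE against CE was -0.75 (SE 0.64, adjusted p = 0.935 by edgeR) and became 1.03 without it. In Sirt2-/- against Control the log2 fold change was -0.35 (SE 0.64, adjusted p = 0.853 by edgeR), and in Sirt2-/-/CE against Sirt2-/- it was 0.42 (SE 0.64, adjusted p = 0.96). The former was -0.11 without Control replicate 5, and the latter 0.16 without Sirt2-/-/CE replicate 16. Limma voom gave Pkm 0.44 in CE and -0.02 in Sirt2-/-, both against Control. For Sirt2-/-/CE it gave 0.25 against Sirt2-/- and -0.21 against CE. The counts of a gene do not separate the M1 from the M2 transcript, so neither was measured here.

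CE replicate 6 also had the highest FPKM of all 20 libraries in Hk1 (1.66), Hk2 (0.644), Pfkp (1.57), the macrophage marker Cd68 (14.8) and the proliferation marker Mki67 (2.16). Its 4 dividing-cell markers (Mki67, Top2a, Ccnb1 and Cdk1) summed to 9.86 FPKM, against 4.48 in CE replicate 9 and at most 2.10 in the other 18 libraries. Its 7 Kupffer cell markers found in the table summed to 88.3 FPKM, which is the median of its group. The part of other cells in the Pkm level was not tested, and in bulk tissue the number of cells of a type and the RNA per cell cannot be told apart.

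**Figure D2:**
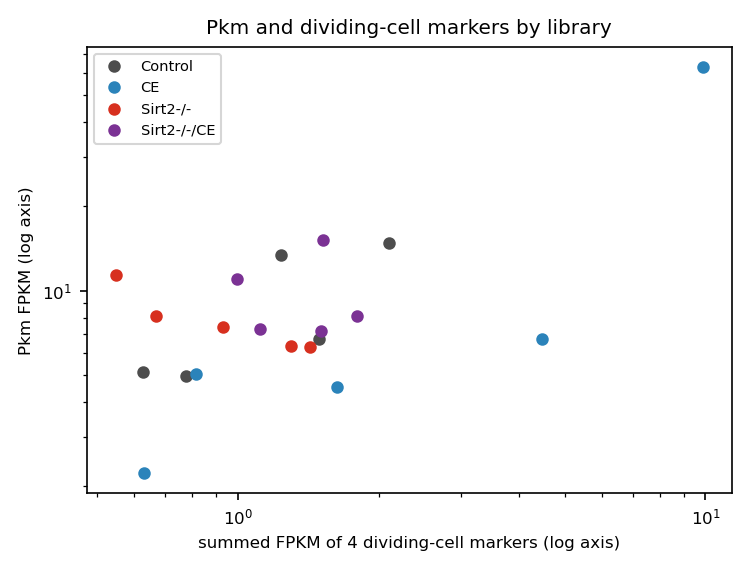
Pkm level (FPKM, vertical log axis) against the summed FPKM of 4 dividing-cell markers (horizontal log axis), 1 point a library and coloured by group. CE replicate 6 stands alone at 62.8 and 9.86 FPKM, while CE replicate 9, next in the markers at 4.48, had a Pkm level of 6.71.

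The Pklr to Pkm ratio followed both genes. Its mean on the log2 scale was 3.27 ± 1.29 in Control (SD, n = 5), 2.23 ± 1.54 in CE, 2.34 ± 0.54 in Sirt2-/- and 2.20 ± 1.00 in Sirt2-/-/CE. The difference was -1.04 in CE and -0.94 in Sirt2-/- against Control, no larger than the Control SD, and 0 of 5 libraries of either group stood above the Control mean. Without CE replicate 6 the difference in CE was -0.37, and without Control replicate 2 that in Sirt2-/- was -0.57. Pkm outweighed Pklr in CE replicate 6 alone, at 0.729 parts Pklr to 1 part Pkm, and the ratio reached 27.0 in Control replicate 2.

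Ldhb, the minor subunit, had the largest fitted differences of the 9 in Sirt2-/-/CE, none past the edgeR threshold. Control libraries had 1.95, 1.15, 1.25, 1.06 and 2.58 FPKM. CE libraries had 0.789, 0.821, 0.747, 1.02 and 1.02 FPKM, all below the lowest Control library. Sirt2-/- libraries had 1.51, 1.26, 0.761, 1.33 and 1.52 FPKM, and Sirt2-/-/CE libraries had 2.93, 1.84, 1.80, 1.36 and 4.35. Every Sirt2-/-/CE library was above every CE library and above the Sirt2-/- mean of 1.27 FPKM. The levels rest on few reads, from 38 to 254 counts a library.

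By edgeR, the log2 fold change of Ldhb was -0.83 in CE against Control (SE 0.32, adjusted p = 0.343) and -0.46 in Sirt2-/- against Control (SE 0.31, adjusted p = 0.526), and the latter was -0.23 without Control replicate 5. It was 1.05 in Sirt2-/-/CE against Sirt2-/- (SE 0.32, adjusted p = 0.503) and 1.42 against CE (SE 0.32, adjusted p = 0.405). The difference between the effects of cold in the 2 genotypes was 1.88 (SE 0.45, adjusted p = 0.239 by edgeR). DESeq2 called the difference from CE (adjusted p = 0.0195) and the interaction (adjusted p = 0.0296), and limma voom called neither (adjusted p = 0.375 and 0.171). Over the alternatives other than leaving out a library, adjusted p ranged from 0.0195 to 0.597 for the former and from 0.0296 to 0.647 for the latter. Leaving out 1 library at a time gave 1.10 to 1.58 for the former and 1.57 to 2.04 for the latter, both lowest without Sirt2-/-/CE replicate 20. Against Sirt2-/-, the value was 0.74 without that library and 0.57 by limma voom.

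Of the markers of other cells, those of Kupffer, endothelial and, by less, stellate cells had higher medians in both knockout groups than in Control and CE, and those of leukocytes and cholangiocytes did not. The 7 Kupffer cell markers had a median sum of 95.6 FPKM in Control (48.9 to 153), 88.3 in CE (47.6 to 174), 149 in Sirt2-/- (105 to 180) and 163 in Sirt2-/-/CE (130 to 226). The 5 endothelial markers had medians of 42.4 (14.2 to 70.5), 28.2 (9.26 to 47.5), 68.9 (30.0 to 76.6) and 69.5 (52.4 to 80.3) in the same order. The 6 stellate cell markers had medians of 56.3 (32.6 to 69.9), 35.3 (9.88 to 67.4), 60.6 (30.4 to 85.9) and 60.1 (53.4 to 70.7). The 8 leukocyte markers had medians of 4.42 (3.47 to 14.4), 2.63 (1.83 to 5.09), 4.42 (3.27 to 4.93) and 3.38 (3.05 to 4.29), and the 5 cholangiocyte markers had 1.61 (1.08 to 2.43), 1.25 (0.978 to 2.64), 1.60 (1.25 to 2.37) and 1.63 (1.07 to 1.98). None of these markers was listed at 0 throughout, and their part in the Ldhb levels was not tested.

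Ldha stayed within a narrower range, from 288 to 599 FPKM over all libraries. Control had 376, 313, 520.5, 288 and 311 FPKM, and CE had 331, 362, 599, 425 and 503. Sirt2-/- had 479.8, 426, 426, 544 and 331 FPKM, and Sirt2-/-/CE had 471, 337, 364, 428 and 354. All groups overlapped. The edgeR log2 fold changes ran from -0.27 in Sirt2-/-/CE against CE (SE 0.21, adjusted p = 0.935) to 0.32 in CE against Control (SE 0.21, adjusted p = 0.645). Without CE replicate 8 both were smaller, at -0.09 and 0.14.

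The ratio of Ldha to Ldhb was the only one of 5 ratios of a form to another whose groups were apart. Its log2 mean was 7.88 ± 0.67 in Control (SD, n = 5), 8.96 ± 0.40 in CE, 8.46 ± 0.50 in Sirt2-/- and 7.43 ± 0.71 in Sirt2-/-/CE. CE libraries had 418 to 802 parts Ldha to 1 part Ldhb, above the 121 to 416 of Control. The nearest values, 418 and 416, were almost equal. Sirt2-/-/CE libraries had 81.4 to 314, below all CE libraries, and the difference was -1.53 on the log2 scale. These ratios were given no test, since they restate the members' own values.

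**Figure D3:**
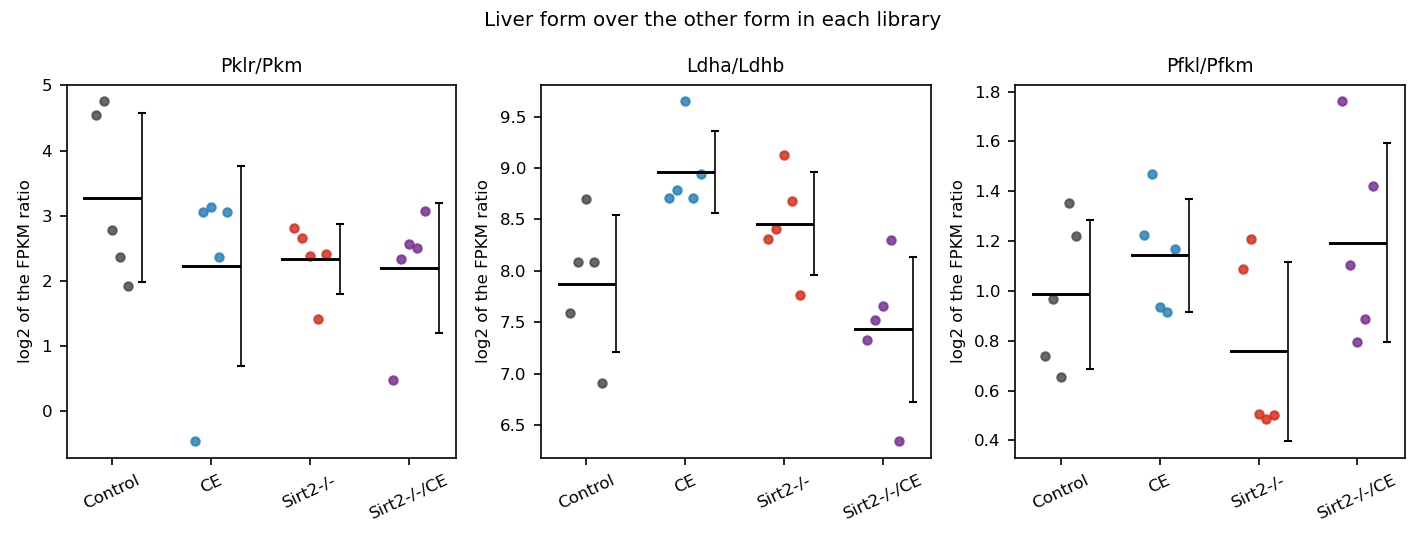
The log2 of the FPKM ratio of the liver form to the other form in each library (points) for 3 families, with the group mean (line) and SD (bar, 5 libraries a group). Only Ldha/Ldhb separates CE from Control and from Sirt2-/-/CE, and CE replicate 6 at -0.46 and Sirt2-/-/CE replicate 16 at 0.48 lie low in Pklr/Pkm.

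Pfkl (ENSMUSG00000020277; chromosome 10, 77986947 to 78010083, reverse strand) was steady. It had 8.62 ± 1.37 FPKM in Control (SD, n = 5), 9.87 ± 1.02 in CE, 10.1 ± 1.20 in Sirt2-/- and 11.2 ± 2.09 in Sirt2-/-/CE. The 4 edgeR log2 fold changes were 0.09 to 0.24, each with an SE of 0.16. Pfkm (ENSMUSG00000033065; chromosome 15, 98092589 to 98132451, forward strand) had 4.57, 4.11, 4.81, 3.54 and 4.66 FPKM in Control. It had 4.61, 5.001, 6.97, 7.81 and 5.95 in Sirt2-/-, where all 5 libraries were above the Control mean and 4 were above every Control library. Its log2 fold change there was 0.34 (SE 0.15, unadjusted p = 0.0339, adjusted p = 0.284 by edgeR), and CE (4.48 ± 0.547 FPKM) and Sirt2-/-/CE (4.87 ± 0.573) overlapped with Control. Limma voom gave it 0.18. Scaling by library size only gave 0.48, a setting under which the median of all genes stood at 0.16. The ratio of Pfkl to Pfkm was 1.399 to 2.31 in Sirt2-/- and 1.57 to 2.55 in Control.

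Hk1 (ENSMUSG00000037012; chromosome 10, 62268855 to 62379908, reverse strand) was low throughout. It had 0.451 to 0.989 FPKM in Control, 0.223 to 1.66 in CE, 0.479 to 0.946 in Sirt2-/- and 0.732 to 0.949 in Sirt2-/-/CE. Hk2 (ENSMUSG00000000628; chromosome 6, 82725025 to 82774454, reverse strand) had 0.184 to 0.304, 0.0673 to 0.644, 0.143 to 0.396 and 0.0861 to 0.298 FPKM in the same order, on 16 to 156 counts a library. The widest range of both was that of CE, from replicate 8 at the bottom to replicate 6 at the top. The edgeR log2 fold changes of Hk1 were 0.18 to 0.25 (SE 0.35), and those of Hk2 -0.42 to 0.17 (SE 0.43). In CE against Control they were 0.23 and 0.17, and without CE replicate 6 they were -0.33 and -0.44. Values of Hk2 also varied over the 7 alternatives other than leaving out a library. They ranged from 0.10 to 0.41 in CE and from 0.08 to 0.40 in Sirt2-/-, both against Control. In Sirt2-/-/CE they ranged from -0.73 to -0.34 against Sirt2-/- and from -0.47 to -0.35 against CE.

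Eno1 (ENSMUSG00000063524; chromosome 4, 150236721 to 150248879, forward strand) had 135 to 185 FPKM in Control and 125 to 209 in CE. It had 162 to 293 FPKM in Sirt2-/- and 134 to 296 in Sirt2-/-/CE. In each, 2 of 5 libraries reached 250 or more, namely Sirt2-/- replicates 14 and 15 and Sirt2-/-/CE replicates 16 and 20. Limma voom gave these libraries the lowest weights of all 20, at 0.28, 0.57, 0.21 and 0.59 in that order. The edgeR log2 fold changes of Eno1 were -0.03 to 0.32 with an SE of 0.24, and limma voom turned the direction of all 4. Genes at least 95% identical over 150 bases or more held 6.07% to 12.2% of its counts together with theirs, mostly Eno1b. How reads shared with them were assigned is not given in the sources used here, so the level of Eno1 is uncertain. No such gene was found for Hk2 and Pfkl, those of Pkm were not in the table, and those of Hk1, Ldha, Ldhb and Pfkm held at most 4.41%.

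**Figure D4:**
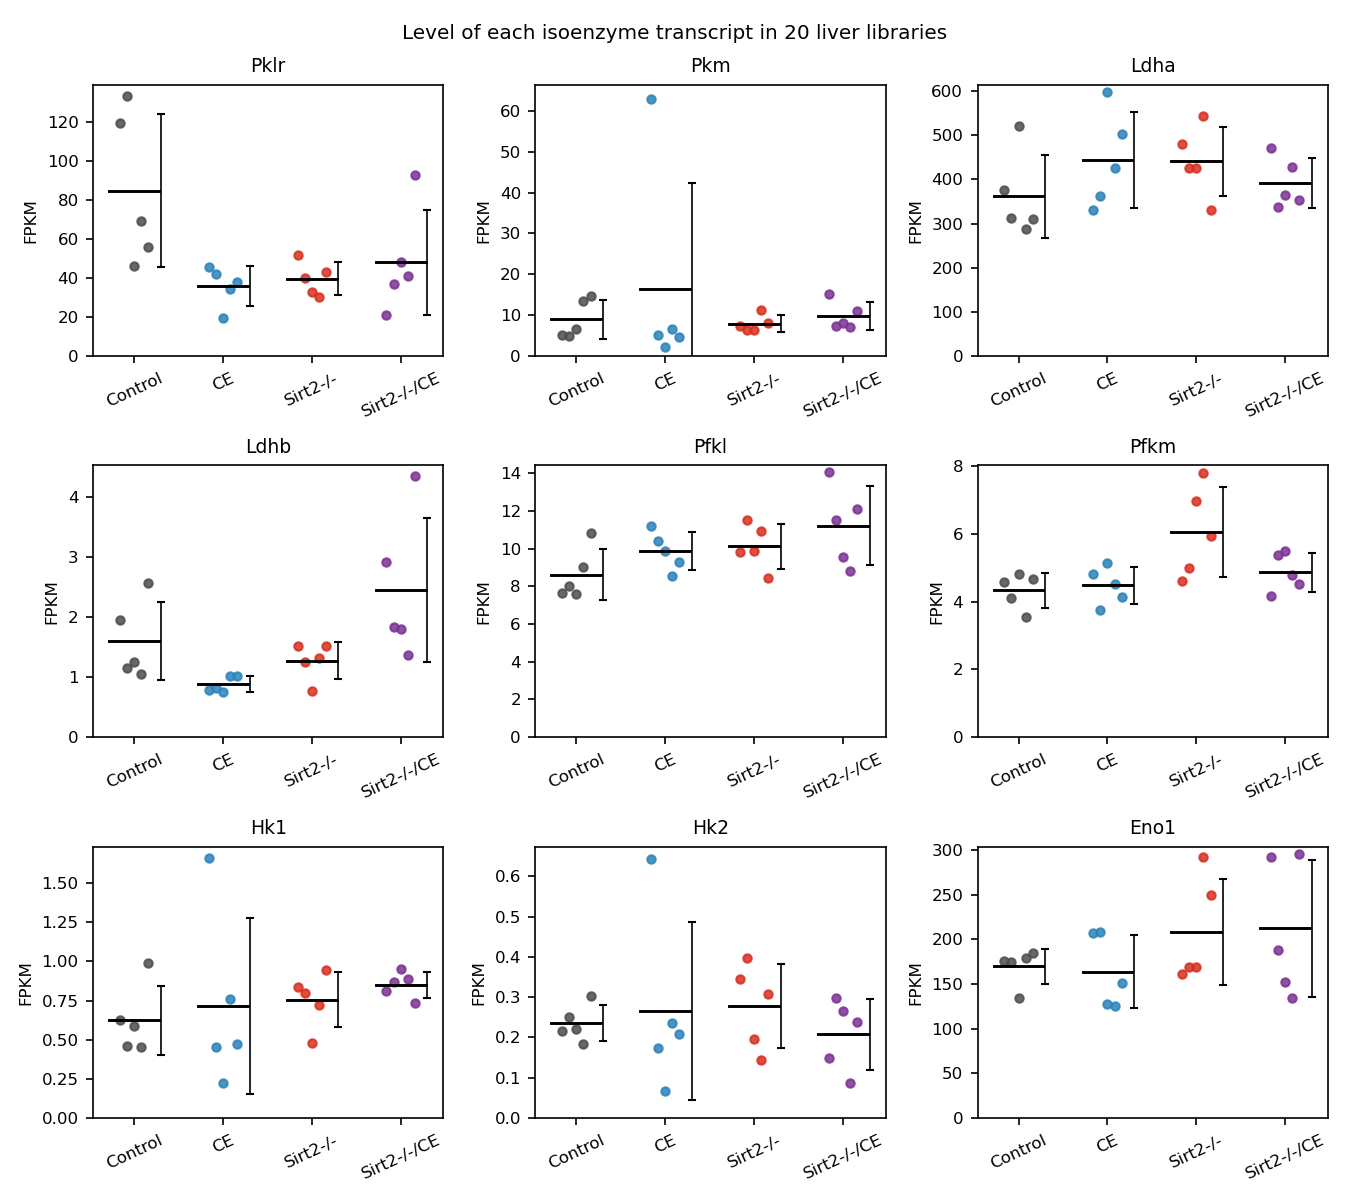
FPKM of the 9 transcripts in each of 20 libraries (points), with the group mean (line) and SD (bar, 5 libraries a group, cut at 0 in the CE group of Pkm). Pklr means are lower in the other 3 groups than in Control, the Ldhb mean is lowest in CE and highest in Sirt2-/-/CE, and CE replicate 6 lies far above the rest in Pkm.

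None of the 9 passed an adjusted p under 0.05 with edgeR in any of the 5 comparisons. In CE against Control, 2 of 9 had an unadjusted p under 0.05 (Pklr and Ldhb, both lower), where 10.7% of all genes tested did and 0.0064% passed the adjusted threshold. In Sirt2-/- against Control, 2 of 9 did (Pklr lower, Pfkm higher), against 14.9% of all genes, and 0.89% passed. In Sirt2-/-/CE against Sirt2-/-, 1 of 9 did (Ldhb, higher), against 7.25%, and 0% passed. In Sirt2-/-/CE against CE, 1 of 9 did (Ldhb, higher), against 6.09%, and 0.0128% passed. In the interaction, 2 of 9 did (Pklr and Ldhb), against 8.34%, and 0% passed. DESeq2 called 1 member in CE (Pklr), 1 in Sirt2-/- (Pklr), 0 in Sirt2-/-/CE against Sirt2-/-, 1 against CE (Ldhb) and 1 in the interaction (Ldhb). It called 1.13%, 3.97%, 0.0449%, 0.207% and 0.263% of all genes. Limma voom called Pklr in CE and in Sirt2-/- and no member elsewhere, beside 3.46%, 5.8%, 0%, 0.0128% and 0% of all genes.

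The FPKM of 2 of 9 members did not overlap between CE and Control (Pklr and Ldhb), where 2.62% of all genes tested did not. Between Sirt2-/- and Control, 0 of 9 were apart, against 4.69%. Between Sirt2-/-/CE and Sirt2-/- it was 0 of 9, against 0.929%, and between Sirt2-/-/CE and CE it was 1 of 9 (Ldhb), against 1.56%. The median log2 fold change of the 9 was 0.17, 0.09, 0.24 and 0.11 in the order CE, Sirt2-/-, Sirt2-/-/CE against Sirt2-/- and Sirt2-/-/CE against CE. Over all genes tested it was -0.01, 0.02, 0.01 and 0.02. In each of these 4 comparisons, 6 of 9 members had a positive and 3 a negative value.

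**Figure D5:**
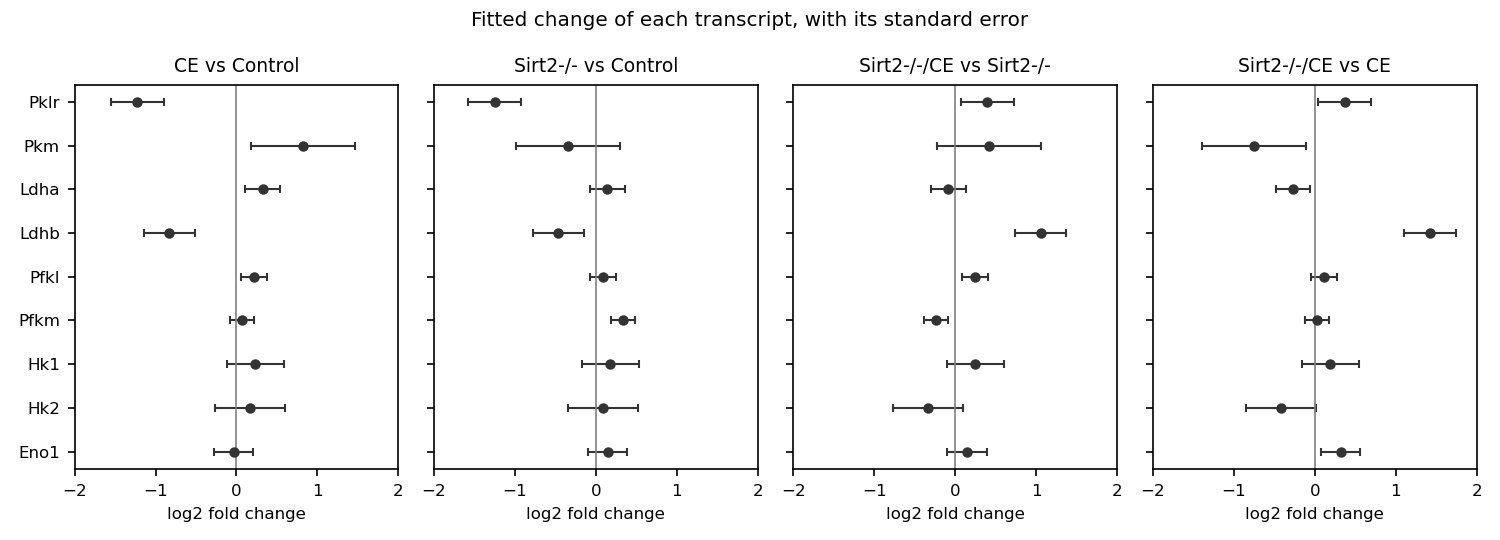
Fitted log2 fold change (horizontal axis) of the 9 transcripts in 4 comparisons, with bars of 1 standard error from the edgeR fit. Pklr lies at -1.22 and -1.25 in the first 2 panels and Ldhb at 1.05 and 1.42 in the last 2, while most others lie near 0.

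The other glycolytic genes gave no edgeR call either. The list held 40 further enzymes, transporters and regulators, of which 37 were tested, and 0 passed an adjusted p under 0.05 in any comparison. By unadjusted p under 0.05, 2 were higher and 1 lower in CE, 6 higher and 5 lower in Sirt2-/-, 3 higher and 2 lower in Sirt2-/-/CE against Sirt2-/-, 0 higher and 1 lower against CE, and 3 higher and 0 lower in the interaction. The shares of all genes tested, in either direction, were 10.7%, 14.9%, 7.25%, 6.09% and 8.34% in the same order. DESeq2 called 1 in CE (Slc2a2) and 1 in Sirt2-/- (Gckr), and limma voom called 2 in CE (Slc2a1 and Slc2a2) and 2 in Sirt2-/- (Gckr and Slc2a2). Both called 0 elsewhere. Over all genes DESeq2 called 1.13% in CE and 3.97% in Sirt2-/-, and limma voom 3.46% and 5.8%. Slc2a2, the main glucose transporter of hepatocytes, was among the 3 in CE (log2 fold change -0.97, SE 0.24, adjusted p = 0.171 by edgeR). Slc2a1, the transporter of most other cells, had 0.62 there (SE 0.19, adjusted p = 0.242 by edgeR). In Sirt2-/- against Control, Slc2a2 had -0.67 (SE 0.24, adjusted p = 0.183 by edgeR) and Slc2a1 0.41 (SE 0.19, adjusted p = 0.334). Ldhd, which handles the mirror form of lactate, had 69.6 ± 5.78 FPKM in Control (SD, n = 5) and 81.3 ± 14.4 in CE, beside 61.7 ± 20.7 in Sirt2-/- and 66.9 ± 13.8 in Sirt2-/-/CE, and all groups overlapped.

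Spearman's rho of log2 CPM across the 20 libraries, over points that share group and depth, was 0.13 for Pklr and Pkm, -0.17 for Ldha and Ldhb, 0.08 for Pfkl and Pfkm, and 0.49 for Hk1 and Hk2. The search for genes of like pattern covered 10591 genes that averaged 1 FPKM or more. Those most like Pklr were Lect1 (0.85), Pdk1, a kinase of pyruvate dehydrogenase (0.84), and Olfml1 (0.84). Those most like Ldhb were Serpinb6a (0.85), Anxa3 (0.85) and Sp100 (0.82), and those most like Pkm were Cd72 (0.80), Cd63 (0.80) and Telo2 (0.78). Hk1 was most like Rab31 (0.84), Arhgdib (0.82) and Sirpa (0.80). The rho with Cd68 was 0.80 for Hk1, 0.66 for Pkm and 0.48 for Hk2, and from -0.12 (Ldha) to 0.43 (Ldhb) for the other 6 members. Hk2 was most like Arrb1 (0.80), Iqgap1 (0.78) and Samhd1 (0.78). Ldha was most like Chchd5 (0.80), Vtn (0.78) and Hmox2 (0.78), and Pfkm like Cyb5r1 (0.73) and Map4k2 (0.70). Pfkl was most like Hras (0.90), Mrpl33 (0.90) and 2010111I01Rik (0.89), and Eno1 like B4galt5 (0.85), Gpi1, the enzyme that follows hexokinase (0.83), and Mrto4 (0.83).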

How the data were processed

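Mouse liver RNA of 20 libraries was enriched on oligo(dT) beads and sequenced on an Illumina NovaSeq. The authors deposited 1 table that holds raw read counts per gene and library, without normalization, and FPKM values scaled by the authors to gene length and depth. The labels name the build mm10 (GRCm38); aligner, counter and strand are not given in the sources used here. 9 lines without a gene were left out. Counts were tested in R 4.3.3 with edgeR 4.0.16 (TMM, filterByExpr with a minimum count of 10 and total of 15, quasi-likelihood F test, two-sided, 1 fit of all 20 libraries by group, Benjamini-Hochberg over 15616 genes, threshold 0.05). Alternatives were DESeq2 1.42.0, limma voom 3.58.1 with sample quality weights, other scalings, no filter, fits of only 2 groups, and leaving out each library. The edgeR steps were tested on simulated data. FPKM levels, shares and ratios were described without a test. Similar genes were found with BLAST+ 2.17.0, and figures drawn with matplotlib 3.10.9 in Python 3.11.15. The library depth and the spread between libraries set the precision. The named genes were all 9 members, Sirt2, the genes that complete a member's family, listed glycolytic genes with an adjusted p under 0.05, and for each member the 3 genes with the highest Spearman's rho. Members and lists were chosen with earlier results of these data known, and genes of the list named beyond this rule (Slc2a2, Slc2a1, Gckr, Mlxipl, Hcn3 and Eno1b) were picked after their values were seen. No pair of libraries of a group agreed within sampling noise. Some genes that this rule names are not reported here.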

Additional observations from a re-analysis of the deposited data

Results flagged for a closer look

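In 68 groups of 5 values tested for a value far from the others (gap over range above Dixon's critical value for 5), 5 were found, and chance alone gives about 1 in 20. The FPKM of Pkm in CE replicate 6 was 62.8, the highest of its group. The FPKM of Eno1 in Control replicate 3 was 134.6, the lowest of its group. The log2 ratio of Pklr to Pkm was low in CE replicate 6, at -0.46, and in Sirt2-/-/CE replicate 16, at 0.48. The log2 ratio of Ldha to Ldhb was high in CE replicate 8, at 9.65. The effect of CE on Ldhb had opposite directions in the 2 genotypes. All 5 CE libraries were below the Control mean and all 5 Sirt2-/-/CE libraries above the Sirt2-/- mean, and the 2 effects differed by 1.90 FPKM. The edgeR test of this interaction gave an adjusted p of 0.239 and an unadjusted p of 0.000444, where 8.34% of all genes had an unadjusted p under 0.05.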

How the results depend on the processing

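The number of members called was 0 in every comparison with edgeR under upper-quartile scaling, library size only, no filter, fits of 2 groups (not run for the interaction), the clock covariate and each library left out. DESeq2 called 1 member in CE against Control, in Sirt2-/- against Control, in Sirt2-/-/CE against CE and in the interaction, and limma voom called 1 in CE and 1 in Sirt2-/- against Control. Over all genes, edgeR called 139 in Sirt2-/- against Control, and 419 by library size only, 35 without a filter, 29 in a fit of 2 groups, 0 with the clock covariate, 607 by DESeq2 and 906 by limma voom. In CE against Control edgeR called 1, or 0 in a fit of 2 groups and 2 with the clock covariate, DESeq2 169 and limma voom 540. In Sirt2-/-/CE against CE it was 2, 1 by library size only, 0 in a fit of 2 groups and 31 by DESeq2, which also called 7 against Sirt2-/- and 41 in the interaction, where edgeR called 0. Library size alone moved the median of all genes to 0.16 in Sirt2-/- against Control. Of 306 log2 fold changes under alternatives other than leaving out a library, 288 kept direction and side of the threshold, 6 passed it and 12 reversed. Reversed values were, by library size only, -0.072 for Hk1 and -0.0331 for Pfkl in the interaction; by limma voom, 0.00476 for Eno1 in CE, -0.0574 in Sirt2-/-, -0.065 in Sirt2-/-/CE against Sirt2-/-, -0.127 against CE and -0.0698 in the interaction, -0.0214 for Pfkl in Sirt2-/-/CE against Sirt2-/-, -0.0956 against CE and -0.324 in the interaction, and -0.0193 for Hk1 in the interaction; with the clock covariate, -0.12 for Pfkl in the interaction. The cause was not tested. Without 1 library, 38 of 540 values reversed. The ranges in CE against Control were -0.33 to 0.46 (Hk1), -0.44 to 0.40 (Hk2), -0.96 to 1.09 (Pkm), -0.0296 to 0.12 (Pfkm) and -0.15 to 0.0646 (Eno1). In Sirt2-/- against Control they were -0.0717 to 0.25 (Hk2) and -0.0085 to 0.21 (Eno1). In Sirt2-/-/CE against Sirt2-/- they were -0.0243 to 0.57 (Pklr) and -0.0412 to 0.30 (Eno1). Against CE they were -0.0192 to 0.75 (Hk1), -0.65 to 0.19 (Hk2), -0.0597 to 0.54 (Pklr), -1.02 to 1.03 (Pkm), -0.0288 to 0.20 (Pfkl) and -0.024 to 0.12 (Pfkm). In the interaction they were -0.21 to 0.58 (Hk1), -0.73 to 0.11 (Hk2), -0.66 to 1.38 (Pkm), -0.11 to 0.11 (Pfkl) and -0.00866 to 0.33 (Eno1). Of 264 differences in a log2 ratio under an alternative, 19 changed sign. All moved from the reported value by less than 1 SD between libraries. Leaving out 1 of 5 libraries cannot move a difference that far, so this limit says nothing about those settings. No paired analysis was possible because the replicate numbers run from 1 to 20 and no number is shared between groups. The depth of Ldhb, Hk1 and Hk2 limits their precision.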
